A study of Mus musculus with 4 samples.

Results

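Open chromatin domains of 3 kb or more were described in mouse T-helper 17 (Th17) cells, a CD4 T-cell type named for its product interleukin 17. Peaks of the 4 replicates that overlapped by 1 bp or more were merged on chromosomes 1 to 19 and X. A merged region was a broad domain when it held a peak of all 4 replicates and was at least 3000 bp wide. A domain was called promoter when its midpoint lay within 1 kb of a transcription start site (TSS) of a protein-coding gene, and distal otherwise. Of 68680 regions shared by all 4 replicates, 351 were broad domains, of which 206 were promoter and 145 distal. They made up 0.511% of the shared regions and held 1.80% of the shared bases, 1.24 Mb in all. The domains were chosen by width, so their width is not a finding. All values below describe 1 set of cells and carry no test, and regions are not replicates of a condition.

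The assay was ATAC-seq, which uses a transposase to tag accessible DNA with adapters. The series holds 1 group of 4 biological replicates of primary Th17 cells of strain C57BL/6NJ, prepared by a differentiation protocol that the labels cite by link only, with no other treatment, genotype or control group. All 4 carry the same donor identifier, and age and sex are not given, so the spread between replicates may be partly technical. The peak names of replicates 1 and 2 carry the tag KS134 and those of replicates 3 and 4 KS136, with no explanation in the labels. The names also carry a mark in hours and the words ASTARR.insert, which the labels do not explain either. The lists held 83886, 85103, 85272 and 84117 peaks, and read depth is unknown. Of 14 listed Th17 genes, 13 had a shared region within 1 kb of a TSS, all but Il22, and all 15 listed T-cell identity genes had one. The count was 6 of 10 for B-cell genes, 5 of 10 for myeloid genes, 4 of 10 for CD8 or NK genes, 7 of 10 for neuronal genes, 2 of 10 for hepatocyte genes and 4 of 10 for muscle genes, beside 64.9% of all protein-coding genes.

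Most accessible elements are short, about the size of a nucleosome-free stretch with its neighbours, since a few bound factors displace few nucleosomes. Wide accessible stretches are known from CpG islands at promoters, where CpG dinucleotides escape the loss seen in the rest of the genome, from clustered enhancers, and from strongly transcribed genes, whose RNA polymerase runs on past the end of the mature transcript before it is released. Tandem repeats can also appear as wide peaks, because reads from many genomic copies may be placed on the few copies in the assembly. These statements are background and were not tested on the domains.

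The domains differed in sequence by kind, and the stretches printed here show each kind. All were read from GRCm38.p6, the assembly of mm10, on the plus strand. The first 4 are 160-bp stretches at or near the mean of the strongest summits, clear of annotated exons, with CpG dinucleotides in capitals. They come from the Dusp4 promoter domain (chr8:34807086-34807245), the Prkcq promoter domain (chr2:11171104-11171263), the domain past the end of Rps24 (chr14:24500558-24500717) and the domain past the ends of Mto1 and Eef1a1 (chr9:78476851-78477010).
Dusp4: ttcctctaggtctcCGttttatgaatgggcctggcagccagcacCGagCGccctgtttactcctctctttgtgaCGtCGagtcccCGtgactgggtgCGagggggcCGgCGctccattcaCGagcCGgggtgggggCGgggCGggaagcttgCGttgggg
Prkcq: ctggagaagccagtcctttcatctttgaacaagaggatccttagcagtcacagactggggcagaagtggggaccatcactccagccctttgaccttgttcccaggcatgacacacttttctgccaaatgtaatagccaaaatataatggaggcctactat
Rps24: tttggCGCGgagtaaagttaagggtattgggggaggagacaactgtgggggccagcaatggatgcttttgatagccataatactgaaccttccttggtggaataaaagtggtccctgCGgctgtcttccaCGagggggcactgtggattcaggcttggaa
Mto1 and Eef1a1: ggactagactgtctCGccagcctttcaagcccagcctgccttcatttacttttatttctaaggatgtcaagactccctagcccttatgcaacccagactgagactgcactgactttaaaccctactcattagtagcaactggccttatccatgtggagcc
The Dusp4 stretch holds 14 CpG, the Rps24 stretch 4, the Mto1 and Eef1a1 stretch 1 and the Prkcq stretch 0. The strongest Prkcq summits lay at -2047, -2080, 272 and 159 bp from the TSS in replicates 1 to 4, so their mean falls between summits. The Prkcq stretch thus does not show the CpG content of a summit or of the domain's centre.

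The next 3 are from domains without a protein-coding TSS that lay nearest to genes of the lists used here, inside Tcf7 (chr11:52272780-52272939), Bach2 (chr4:32424545-32424704) and Itgae (chr11:73109640-73109799), and matches to the AP-1, RUNX or CpG-free ETS string would be in capitals. The Bach2 stretch holds 1 match, the RUNX string TGTGGTT, and the Tcf7 and Itgae stretches hold 0.
Tcf7: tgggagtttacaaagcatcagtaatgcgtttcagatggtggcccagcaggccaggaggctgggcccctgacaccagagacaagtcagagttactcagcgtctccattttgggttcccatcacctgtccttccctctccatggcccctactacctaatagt
Bach2: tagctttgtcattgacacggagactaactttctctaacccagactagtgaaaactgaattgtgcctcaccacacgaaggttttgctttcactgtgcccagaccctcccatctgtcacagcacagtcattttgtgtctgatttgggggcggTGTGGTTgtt
Itgae: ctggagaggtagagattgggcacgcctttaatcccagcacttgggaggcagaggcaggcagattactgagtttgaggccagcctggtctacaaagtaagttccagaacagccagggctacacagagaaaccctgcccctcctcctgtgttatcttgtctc
The last 5 are from tandem repeat domains: 234 bp of the domain at Gm11168 (chr9:3003274-3003507), which is the length of its repeat unit, and 3 consecutive units each from the domains nearest to Scaf8 (chr17:3011946-3012008), Vmn1r2 (chr4:3065734-3065796), Tmem267 (chr13:119599017-119599109) and Mid1 (chrX:169993826-169993918), with the middle unit in capitals.
Gm11168: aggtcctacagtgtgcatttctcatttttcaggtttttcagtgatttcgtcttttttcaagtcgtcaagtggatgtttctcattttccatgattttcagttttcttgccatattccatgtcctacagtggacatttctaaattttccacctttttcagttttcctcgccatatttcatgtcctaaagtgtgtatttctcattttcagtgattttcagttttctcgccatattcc
Scaf8: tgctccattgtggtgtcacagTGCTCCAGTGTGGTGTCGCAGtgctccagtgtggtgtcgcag
Vmn1r2: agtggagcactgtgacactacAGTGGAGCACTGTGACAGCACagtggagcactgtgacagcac
Tmem267: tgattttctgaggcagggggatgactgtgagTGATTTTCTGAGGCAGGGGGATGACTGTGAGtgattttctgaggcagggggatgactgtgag
Mid1: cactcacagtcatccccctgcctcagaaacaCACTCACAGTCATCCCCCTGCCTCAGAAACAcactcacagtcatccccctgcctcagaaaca
The capital units were compared on both strands and at every starting base of the repeat, and the best match was kept. With 1 unit read on the opposite strand and its start shifted, those of Scaf8 and Vmn1r2 match at 18 of 21 bases. Those of Tmem267 and Mid1 match at 29 of 31 in the same way. Near-identical short units thus lie on different chromosomes.

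Shared promoter regions had a median width of 1382.5 bp and shared distal regions of 800 bp. The broad promoter domains had a median of 3299 bp, with quartiles of 3106.5 and 3605.25 bp, and the broad distal domains a median of 3301 bp, with quartiles of 3130 and 3723 bp. Only 45 domains reached 4000 bp, and 1081 shared regions reached 2500 bp, so the width limit cuts through a continuous range. Just inside the limit lay the promoter domains of Spred1 (3002 bp), Map3k8 (3003 bp), Cyp1b1 (3005 bp), Irs2 (3006 bp) and Tfeb (3012 bp). Just outside lay the promoter regions of Zbtb7a (2994 bp), Ankrd17 (2994 bp), Ywhaz (2993 bp) and Prkaa1 (2990 bp) and a region over a Prdm14 TSS (2991 bp). Chromosome 11 held 46 domains, or 3.87 per 10 Mb of sequence, while chromosome 16 held 4 and chromosome X 7, or 0.420 and 0.417 per 10 Mb. Of the shared regions of each, 0.894% on chromosome 11, 0.166% on chromosome 16 and 0.495% on chromosome X were broad, beside 0.511% in all. Chromosome X was thus low per Mb but near the common share of its shared regions.

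**Figure D1:**
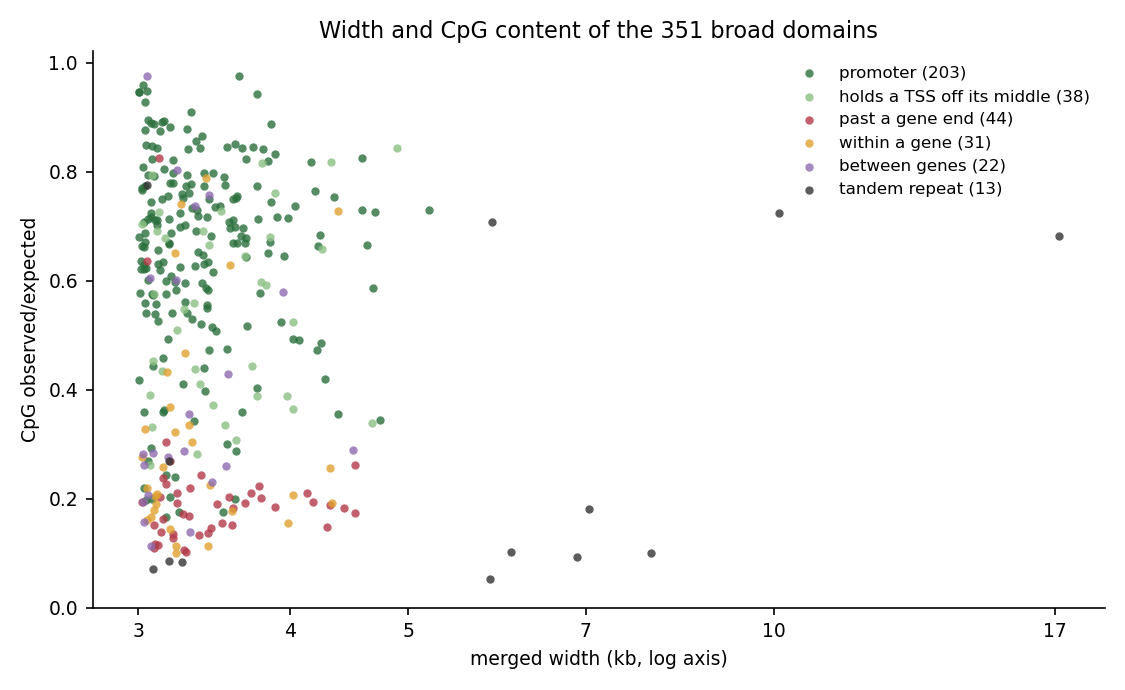
Each point is 1 of the 351 broad domains, with its merged width in kb on a log axis and its ratio of observed to expected CpG, coloured by kind, with the number of domains in the legend. Every domain wider than that of Dusp4, 5197 bp, is a tandem repeat. Most promoter domains lie above 0.5 and most domains past a gene end near 0.2.

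The rule asks for a peak of every replicate in each domain, and the replicates differed in how much of a domain their peaks covered. From the peaks of 1 replicate alone, 168, 161, 234 and 195 regions reached 3000 bp in replicates 1 to 4, fewer than the 351 merged domains. Replicates 1, 2, 3 and 4 covered 94.3%, 92.9%, 97.7% and 96.4% of the median promoter domain, a mean of 95.3% ± 2.13 (SD, n = 4). For distal domains the medians were 89.6%, 88.8%, 94.5% and 91.6%, a mean of 91.1% ± 2.51. Replicates 1 and 2, which share a tag, were lower than replicates 3 and 4 in both classes, so the tag moved with coverage; its part was not tested.

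Since all 4 replicates chose the domains, coverage was also read in the replicate left out, with members chosen by the other 3. The left-out replicate covered 94.1%, 93.0%, 97.7% and 96.7% of the median promoter domain, in the order of replicates 1 to 4, and 90.2%, 89.9%, 94.0% and 92.2% of the median distal domain. Every domain chosen by the other 3 had a peak in the left-out replicate, and the lowest share covered was 11.9%, in a distal domain. A single peak of 3000 bp or more was less common. In all 4 replicates such a peak was present in 107 domains, 71 promoter and 36 distal, and in no replicate in 61 domains, 27 promoter and 34 distal. A single peak spanned the covered part in every replicate in 163 domains (46.4%), and 128 domains had 3000 bp covered by all 4 replicates at once.

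**Figure D2:**
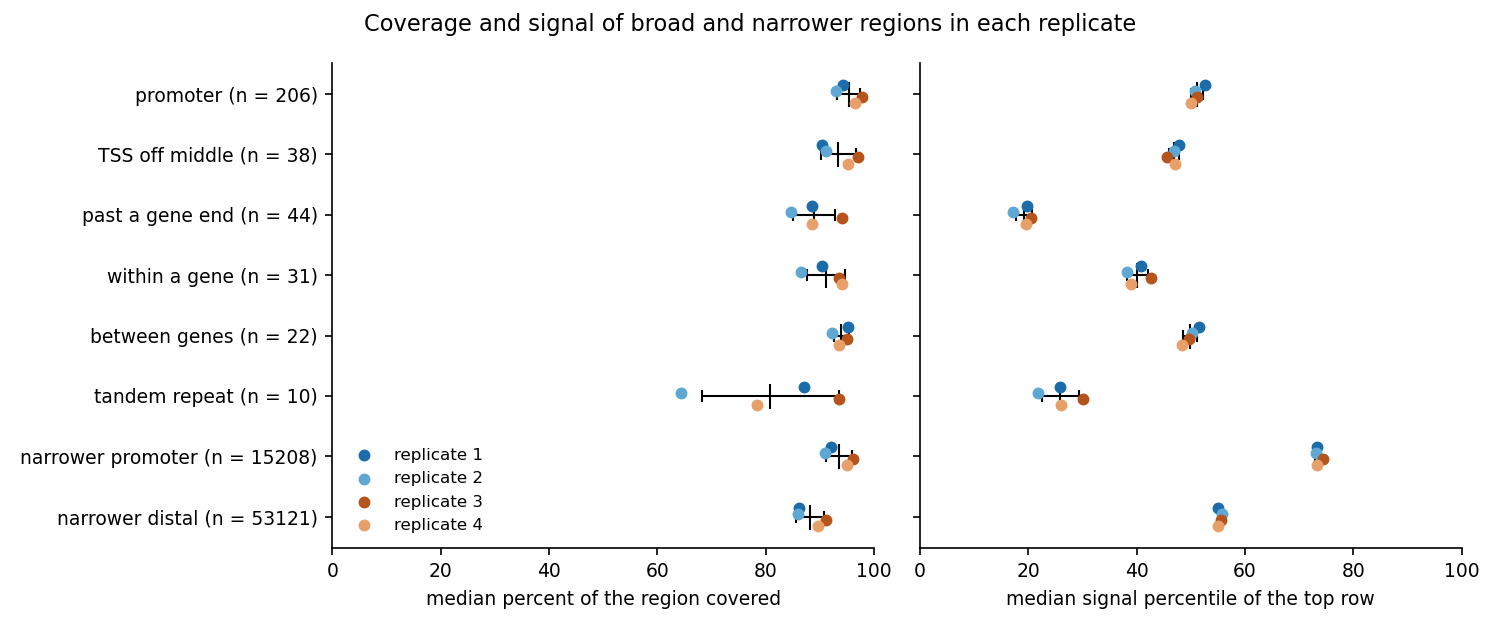
Points are the 4 replicates, black bars their mean and SD (n = 4), for each kind of broad domain and for the narrower shared regions. The left panel gives the median percent of the region covered by peaks. The right panel gives the median rank of the strongest peak among all peaks of its replicate, from 0 (weakest) to 100 (strongest). Promoter domains sit at 49.98 to 52.6 in the right panel, below the narrower promoter regions at 73.0 to 74.4. Domains past a gene end sit at 17.1 to 20.5.

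By the deposited signal the broad domains ranked below the narrower regions, while by the deposited −log10 q they did not. The signal of a peak is a value that the authors' peak caller gave it, and it was ranked within each replicate as a percentile of all peaks. The strongest peak of the median promoter domain stood at percentile 52.6, 50.9, 51.2 and 49.98 in replicates 1 to 4, against 73.4, 73.0, 74.4 and 73.3 in the 15208 narrower promoter regions. For distal domains it stood at 37.4, 36.4, 37.3 and 37.6, against 55.0, 55.8, 55.6 and 55.1 in the 53121 narrower distal regions. The broad and narrower values did not overlap between replicates in either class. The rank by the deposited −log10 q, which grows with the number of reads as well as with enrichment, was 81.7 ± 0.386 (SD, n = 4) in broad promoter domains and 80.5 ± 0.888 in narrower ones, and 67.3 ± 1.08 and 54.1 ± 0.338 in distal ones.

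Across all shared regions, signal rose with width and then fell. In replicate 1 the median percentile was 34.2 below 500 bp, 73.2 between 1000 and 1500 bp, 66.8 between 2000 and 2500 bp and 47.6 at 3000 bp or more, and the other 3 replicates followed the same course. The share of promoter regions rose from 5.33% below 500 bp to 70.0% between 2500 and 3000 bp and was 58.7% in the broad domains. It was 22.3% over all narrower shared regions. Width, signal and class come from the same peaks, so these values describe 1 pattern.

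**Figure D3:**
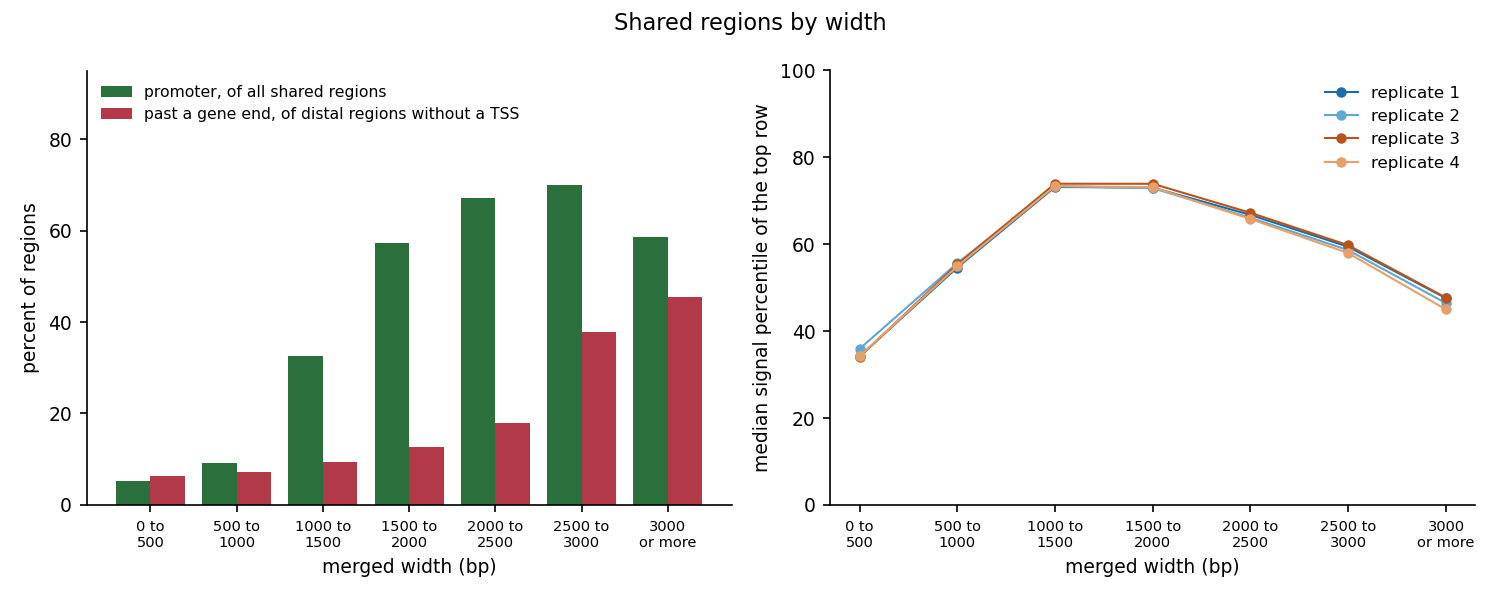
Shared regions are divided by merged width in bp. Bars on the left give the percent of regions that are promoter (green) and the percent of distal regions without a TSS that lie within 5 kb past a gene end (red), which is 45.4% in the broad domains. Lines on the right give the median percentile of the strongest peak in each of the 4 replicates, highest from 1000 to 2000 bp.

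The promoter domains covered 219 protein-coding genes, 1.01% of the 21728 annotated gene names. The widest outside tandem repeats lay at Dusp4, a phosphatase that switches off MAP kinases, over 5197 bp of chr8:34804193-34809389. Its coverage was 89.3%, 90.0%, 81.1% and 91.3% and its signal 5.17, 4.80, 4.67 and 4.96 in replicates 1 to 4. The central peak over the TSS was flanked by an upstream peak and a downstream peak in replicates 1 and 3, while replicates 2 and 4 joined 1 flank to the centre.

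Prkcq, the kinase that relays the T-cell receptor signal to NF-kB, had a domain of 4743 bp (chr2:11169682-11174424). It was covered to 78.5%, 62.7%, 73.8% and 96.3%, with 3, 4, 3 and 1 peaks. Replicate 4 alone joined them. Its ratio of observed to expected CpG was 0.344, well below the promoter median of 0.687. The other widest promoter domains lay at Pcdh7, a protocadherin (4700 bp), Pdgfb, a growth factor (4678 bp), Tgif1, a homeobox repressor of TGF-beta signalling (4623 bp), Ubtf, which drives ribosomal RNA transcription (4583 bp), Zmiz1, a coactivator of Notch targets (4581 bp), and Arhgap9, a GTPase-activating protein (4377 bp). Of these, the Zmiz1 domain was a single peak in every replicate, covering 95.3%, 98.2%, 96.6% and 94.4% of it, and so was that of Tgif1, with 95.7%, 91.7%, 98.2% and 99.1%.

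Several families had more than 1 member among the promoter domains. These families were picked after the domains had been seen, so their counts support nothing and are read against the 1.01% of all protein-coding genes. Of 24 dual-specificity phosphatases, Dusp4, Dusp6 (3206 bp) and Dusp14 (3279 bp) had a promoter domain, and of 6 Sprouty and Spred genes, inhibitors of the same kinase cascade, Spry2 (3019 bp) and Spred1 had one. Chromatin regulators included Kmt2c (3025 bp) and Kmt2e (3106 bp) of 5 Kmt2 genes, Arid1a (3398 bp) and Arid2 (3633 bp) of 10 Arid genes, and Jade1 (3091 bp) and Jade2 (3835 bp) of 3 Jade genes. Both Zmiz genes had one. Of 17 Klf genes, zinc-finger factors, Klf3 (3332 bp), Klf4 (3151 bp) and Klf13 (3456 bp) had a promoter domain. Of 17 Kdm histone demethylases there was 1, Kdm2b (3930 bp), and of 4 Foxo genes 1, Foxo3 (3802 bp). Of 67 replication-dependent histone genes, which lie in dense clusters with short intervals, 9 fell in promoter domains. The histone domains at Hist1h2ai and Hist1h3c shared 20.8% of the distinct 25-base words of the smaller one, so reads from near-identical copies may be split or shared among them.

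Gene lists were drawn up by function with earlier results of these data known, so their counts support nothing. Of T-lineage transcription factors, 7 of 24 had a promoter domain or the TSS nearest to a distal domain. From the peaks of replicate 1, 2, 3 or 4 alone the count was 2, 2, 5 and 5. All list counts of broad domains use the nearest TSS. Ikzf1, whose domain of 3206 bp past its end lay nearer to another TSS, is thus not counted. The promoter domains took in 4 of 24 (16.7%), Tcf7, Satb1, Myb and Zeb1, beside 1.01% of all protein-coding genes and 1.55% of those with an open promoter. Tcf7, a factor of early and memory T cells, had a promoter domain of 3085 bp, covered to 99.7%, 93.2%, 87.6% and 91.6% in replicates 1 to 4 with signals of 3.81, 3.48, 3.80 and 3.61. Satb1, a chromatin organiser of thymocytes, had a promoter domain of 3108 bp with signals of 6.89, 7.49, 6.08 and 6.91, all above those of Tcf7. Myb, a factor of progenitor and developing T cells, had one of 3419 bp and Zeb1, a repressor of interleukin 2, one of 3138 bp. All 24 genes of this list had an open promoter, and the median widest promoter region was 2064.5 bp, against 1504 bp over all genes with an open promoter.

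Another 3 lists relevant to T cells had 1 to 3 members with a promoter domain. The activation transcription factors had 3 of 28 (10.7%), Junb, Jun and Nfatc1. Jun, a subunit of AP-1, had a domain of 3531 bp that was a single peak in every replicate, with coverage of 98.8%, 98.8%, 99.9% and 100% and signals of 7.06, 7.07, 6.23 and 7.26. Junb, another AP-1 subunit, had one of 3360 bp with signals of 4.77, 4.84, 4.13 and 4.15. Cytokine receptor signalling had 1 of 27, Socs2, a brake on STAT5 signalling, whose 3658 bp were covered to 99.0%, 100%, 99.2% and 99.3% with signals of 8.59, 8.41, 7.47 and 7.60. Of T-cell identity genes, 1 of 15 had a promoter domain, the surface receptor Cd6 (3030 bp). Without replicate 4 the count of identity genes with a broad domain was 0, and it was also 0 with the 50000 peaks of highest signal in each replicate. Without replicate 4 the cytokine receptor list had 1 gene with a broad domain of either class in place of 2.

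No Th17 gene had a promoter domain. The widest promoter region of a Th17 gene was 2880 bp at Maf, followed by 2558 bp at Irf4, 2355 bp at Rora, 2316 bp at Batf, 2015 bp at Ccr6, 1760 bp at Stat3, 1753 bp at Il17a, 1750 bp at Il23r, 1742 bp at Il17f, 1676 bp at Ahr, 1155 bp at Il1r1, 1036 bp at Il21 and 456 bp at Ccl20. The median over the 13 was 1753 bp. The promoters of the signature cytokines Il17a and Il17f were thus open in all 4 replicates, without reaching the limit. Stat3, which carries interleukin 6 and 23 signals, was the single member of the list with a broad domain, and it lay past the gene's end. The list's count was 0 with peaks of −log10 q of at least 10, with the 50000 peaks of highest signal, and in each replicate alone. Eomes, a factor of CD8 and NK cells, had a promoter domain of 3312 bp with coverage of 69.5%, 86.0%, 89.7% and 74.1%, in 2 or 3 peaks per replicate. Of 10 CD8 or NK genes it was the 1 with a domain, and 4 of the 10 had an open promoter; the count was 0 without replicate 3, at −log10 q of at least 10 and with the 50000 peaks of highest signal. Lists of other helper programmes (14 genes), costimulation and migration (24), housekeeping (18), B cell (10), myeloid (10), neuron (10), hepatocyte (10), muscle (10) and developmental transcription factors (16) had 0 promoter domains, where a share of 1.01% gives less than 1 gene in each.

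The TSS lay near the middle of a promoter domain, which the rule requires to within 1 kb. Leaving out 3 tandem repeats, the 203 promoter domains reached a median of 1622 bp upstream and 1758 bp downstream of the nearest TSS, and 118 (58.1%) were longer downstream. In 15207 narrower promoter regions the medians were 627 and 759 bp, with 61.1% longer downstream. At 1500 bp upstream of the TSS 48.3%, 53.7%, 55.7% and 53.2% of the domains were covered in replicates 1 to 4, and at 1500 bp downstream 62.1%, 61.6%, 65.5% and 67.5%. A single protein-coding gene had a TSS inside 183 of the 206 domains, 21 domains held TSSs of 2 genes and 2 domains held more. The median share of exon bases was 20.9%, against 25.7% in narrower promoter regions.

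**Figure D4:**
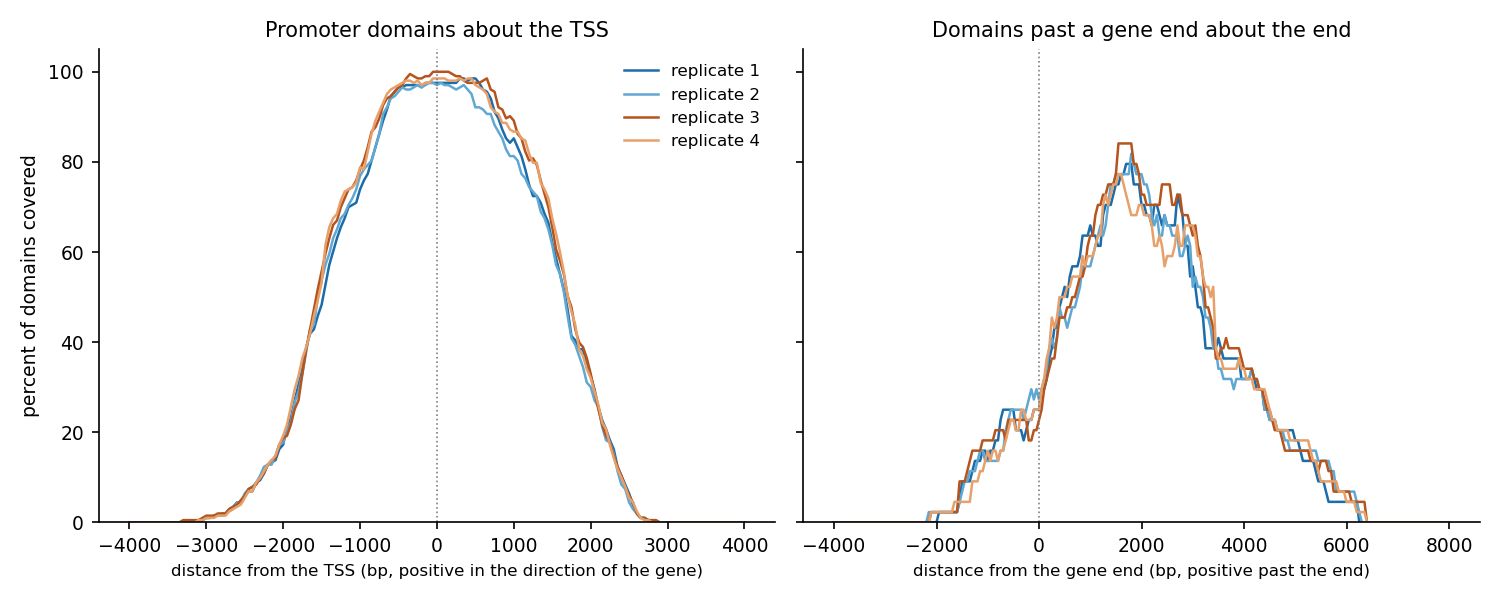
The percent of domains covered by a peak is given for each of the 4 replicates, on the left for 203 promoter domains by distance from the nearest TSS and on the right for 44 domains past a gene end by distance from that end, in bp in the direction of the gene. On the left the curves stay above 92% from 500 bp upstream to 500 bp downstream. On the right they are near 25% at the gene end and highest at about 1500 to 2000 bp past it.

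Promoter domains were rich in CpG. Their median ratio of observed to expected CpG was 0.687 and their median G+C content 58.3%, against 0.633 and 56.4% in narrower promoter regions. In promoter regions from 1500 bp up, the median of every width class lay between 0.684 and 0.696. The KLF/SP string GGGCGGG occurred 1.38 times per kb in promoter domains and 1.24 times in narrower promoter regions. Within 100 bp of the strongest summit it lay in 35.0%, 33.0%, 36.0% and 35.5% of promoter domains in replicates 1 to 4 and in 33.2% ± 0.323 (SD, n = 4) of narrower ones. The ETS string CCGGAAGT, which holds a CpG, occurred 0.0332 times per kb, against 0.0796 in narrower promoter regions. Strings were searched on both strands, and a match is not a bound site.

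Distal domains fell into 5 kinds, which were drawn up after the domains had been looked at. Of the 145, 10 (6.90%) were tandem repeats, 38 (26.2%) held a protein-coding TSS off their middle, 44 (30.3%) lay with their midpoint within 5 kb past the end of a protein-coding gene, 31 (21.4%) lay within a gene and 22 (15.2%) between genes. In the 53121 narrower distal regions the same kinds made up 0.0922%, 0.0734%, 8.12%, 52.4% and 39.3%. Whether a region holds a TSS off its middle depends on its width, which the rule used. The gene nearest to a distal domain was 1 of 138 genes, 0.635% of all. Ago2, Furin, Hivep2 and Tcf7 had both a promoter and a distal domain.

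The 38 domains with a TSS off their middle lay nearer to promoter domains than the other distal kinds did in CpG content. Their median ratio of observed to expected CpG was 0.554 and their signal percentile 47.8, 46.9, 45.6 and 47.1 in replicates 1 to 4. The widest, 4892 bp, lay at Bcor, a corepressor of BCL6, covered to 83.2%, 96.9%, 91.1% and 98.3%. Apobec3, an antiviral cytidine deaminase, had one of 4666 bp that was a single peak in every replicate, with 99.3%, 100%, 99.6% and 99.3% covered. Foxo1, which keeps T cells quiescent, had one of 4319 bp, in 2 peaks in replicates 1 and 2 and in 1 peak in replicates 3 and 4. Egr3, an early activation gene, had one of 3158 bp with signals of 6.24, 6.74, 5.20 and 6.01.

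With the zone of 5 kb, domains past gene ends were the most common kind of distal domain. With a zone of 2 kb they numbered 26, fewer than the 38 with a TSS off their middle. Of the 97 distal domains with no protein-coding TSS and no tandem repeat, 44 (45.4%) had their midpoint within 5 kb past a gene end, against 8.13% of 53033 narrower distal regions; this zone covers 3.95% of the genome. Within 2 kb the shares were 26.8% and 3.58%, and within 10 kb 52.6% and 14.1%. The share grew with width, from 6.26% below 500 bp through 12.6% at 1500 to 2000 bp to 37.9% at 2500 to 3000 bp. The midpoint lay a median of 1863.5 bp past the end, from 61 to 4603 bp. A gene end was inside 18 of the 44, and 10 lay past the ends of 2 genes or more.

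The genes ahead of these domains included many ribosomal protein genes, a group picked after its members had been seen. A domain lay past the end of 54 genes, 0.249% of all protein-coding genes, and past 11 of 84 ribosomal protein genes (13.1%), among them Rpl21, Rpl27a, Rpl31, Rplp1, Rps12, Rps24 and Rpsa. A shared region of any width lay past the end of 57.1% of ribosomal protein genes and 19.9% of all genes. The domain past Rps24, a component of the small subunit, was the widest, 4523 bp (chr14:24498198-24502720), beginning 1239 bp past the gene's end. It was covered to 83.0%, 77.4%, 90.9% and 93.2% with signals of 3.64, 3.66, 3.80 and 3.45, and its strongest summits lay within 2 bp of each other. The promoter of Rps24 had a shared region of only 1489 bp, and that of Rpl31, whose domain was 4312 bp wide, 1269 bp.

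Genes ahead of the other such domains had varied roles, and those named here were chosen after their values were seen. A domain with its midpoint 104 bp past the end of Mto1 also lay past the end of Eef1a1 on the other strand, the elongation factor that brings aminoacyl-tRNA to the ribosome. It was 4518 bp wide (chr9:78473193-78477710), a single peak in every replicate, with coverage of 96.1%, 99.5%, 97.5% and 94.4% and signals of 3.15, 3.29, 2.94 and 2.96. The splicing factors Tra2b (4289 bp) and Sfpq (4174 bp), the splicing kinase Clk1 (3889 bp), the nucleolar protein Ncl (3269 bp) and the initiation factor Eif5 (3113 bp) had domains past their ends. So did Ucp2, a mitochondrial uncoupling protein (4431 bp), Egln3, an oxygen-dependent prolyl hydroxylase (3772 bp), Cbx7, a Polycomb subunit (3381 bp), and Hjurp, a chaperone of centromeric histone (3310 bp). Others were Itgal, the alpha chain of the integrin LFA-1 (3784 bp), Ikzf1, the lymphoid factor Ikaros (3206 bp), and Runx3, a factor of T-cell lineages (3484 bp).

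The domain past Stat3 was 3562 bp wide (chr11:100882950-100886511), with its midpoint 367 bp past the gene's end. It was covered to 89.4%, 71.8%, 80.7% and 89.1%, in 2, 3, 2 and 2 peaks, with signals of 2.41, 2.49, 2.34 and 2.08. Only 48.7% of it was covered by all 4 replicates at once. The Runx3 domain was covered to 64.7%, 74.9%, 77.6% and 66.4%, and 38.8% by all 4. The Stat3 domain broke at nearly the same place in replicates 1 and 4, just before the gene's end, and further on in replicates 2 and 3. The last break of the Runx3 domain lay at nearly the same place in replicates 1 and 3 and further on in replicates 2 and 4.

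**Figure D5:**
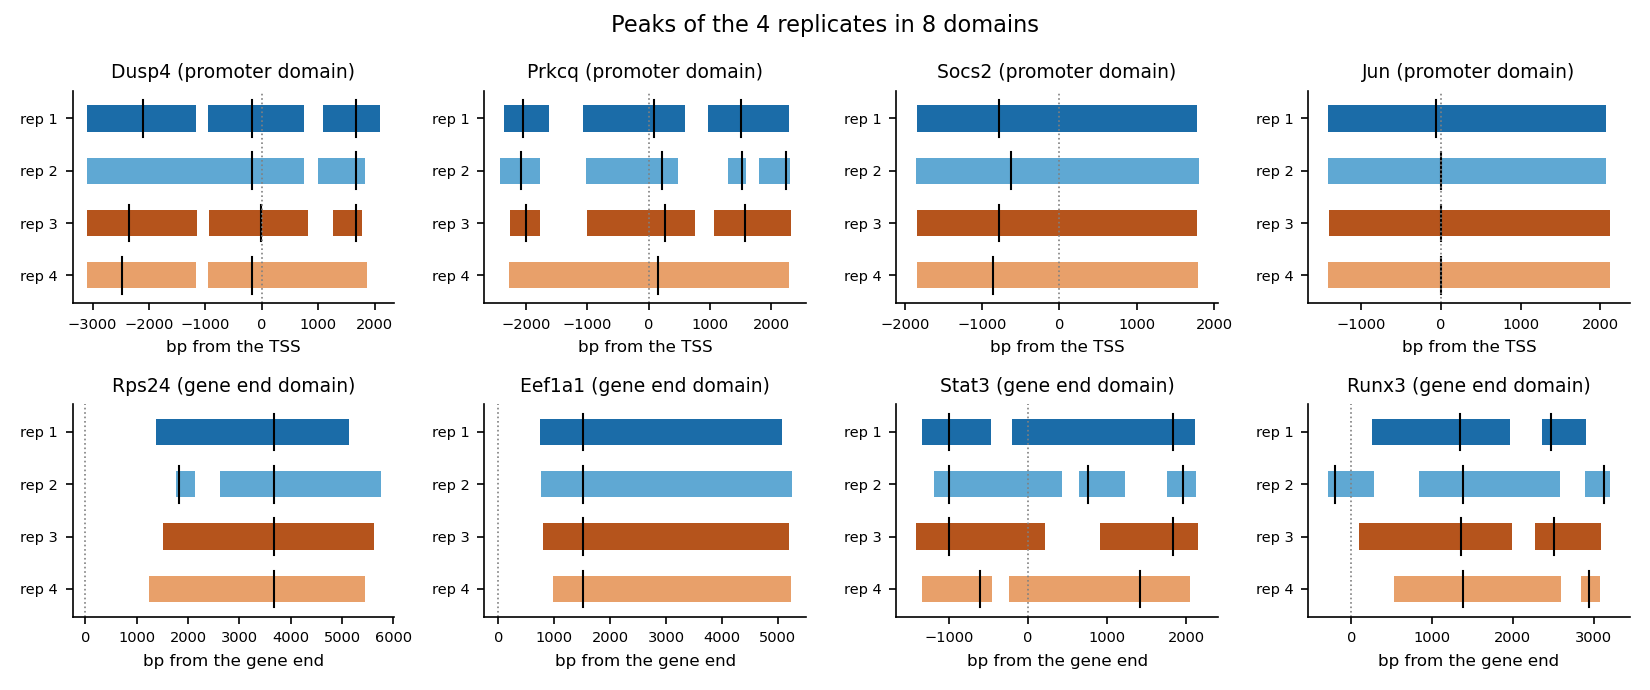
Coloured bars are the peaks of each of the 4 replicates and black ticks their summits, in bp from the TSS (top row, 4 promoter domains) or from the gene end (bottom row, 4 gene end domains), positive in the direction of the gene. The Socs2 and Jun domains are single peaks in every replicate. Those of Dusp4, Prkcq, Stat3 and Runx3 break into up to 4 peaks.

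Domains past a gene end had the lowest signal of the 5 distal kinds in every replicate. The strongest peak of the median domain stood at percentile 19.8, 17.1, 20.5 and 19.5 of its replicate, against 44.7, 46.1, 45.8 and 45.3 in 4314 narrower regions past a gene end. For tandem repeats it was 25.8, 21.8, 30.1 and 26.0. By the deposited −log10 q, tandem repeats ranked lowest of the distal kinds, at 18.3 ± 2.95 (SD, n = 4). By that rank the broad domains past a gene end stood at 46.3 ± 2.28, near the 47.9 ± 0.827 of the narrower regions past a gene end. The median ratio of observed to expected CpG in the broad domains past a gene end was 0.187 and their median G+C content 48.01%. When only the 50000 peaks of highest signal in each replicate were merged, there were 3 domains past a gene end and 134 promoter domains, beside 44 and 206 with all peaks. This filter removes peaks of low signal, which the domains past gene ends held.

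The 53 domains within or between genes had no protein-coding TSS, and 12 of them held the TSS of a gene of another type, such as a long non-coding RNA. Within Tcf7, 4018 bp (chr11:52272318-52276335) were covered to 90.7%, 74.8%, 96.0% and 89.1%, with a midpoint 8244 bp from the TSS, and the domain holds a TSS of A630014C17Rik. Within Bach2, a repressor that keeps T cells from terminal differentiation, 3185 bp (chr4:32423789-32426973) were a single peak in every replicate, with signals of 6.27, 6.10, 5.71 and 5.97 and coverage of 100%, 99.2%, 99.7% and 98.7%. Within Itgae, which encodes the integrin CD103, a domain of 3093 bp was 2 peaks in every replicate, and the strongest summits of the replicates lay up to 1736 bp apart. By the nearest TSS, the costimulation and migration list had 2 genes with a broad domain, Itgae and Tnfrsf18, and 1 gene when replicate 1, 2 or 3 was left out. Itgal of the same list is not counted, since the domain past its end lay nearer to another TSS.

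Between genes, the domain nearest to Il6st, the shared receptor chain of interleukin 6, was 3082 bp wide and 38254 bp upstream of its TSS, with signals of 6.74, 6.52, 6.25 and 6.19. The signal percentile was 40.1 ± 1.98 (SD, n = 4) for domains within genes and 49.9 ± 1.31 for those between genes. Bcor had 3 distal domains on the X chromosome, of 4892, 4381 and 3431 bp. The domain of 4381 bp had the highest share covered by all 4 replicates of any domain, 99.8%. After Bcor, the genes nearest to the most distal domains were Scaf8 with 3, all tandem repeats, and Apobec3, Ncl and Vmn1r2 with 2 each.

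Tandem repeats formed the widest domains of both classes. A domain was called a tandem repeat when 50% or more of its bases equalled the base 1 repeat length further on, for some length from 20 to 500 bp. There were 13, 10 distal and 3 promoter. Of these, 4 lay side by side near the start of the chromosome 9 sequence with a unit of 234 bp, the unit length of the mouse major satellite, at Gm11168 (17133 bp), Gm10717 (10093 bp), Gm10719 (5861 bp) and Gm10715 (3048 bp). The Gm11168 domain was covered to 96.8%, 99.8%, 91.9% and 98.1% with signals of 10.3, 9.71, 9.99 and 8.72. The Gm10717 domain had signals of 17.7, 16.3, 15.1 and 16.4, at percentile 98.9, 96.4, 96.6 and 98.4 of its replicates. These predicted genes overlap satellite copies, and Gm10719 shared 86.7% of its distinct 25-base words with Gm11168, so reads cannot be assigned to a single copy from the lists alone.

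Other tandem repeats had short units. A further 7 near the starts of chromosomes 3, 4, 16 and 17 had a unit of 21 bp, and those nearest to Tmem267 and Mid1 a unit of 31 bp. The Tmem267 domain, 7035 bp, was a single peak in every replicate with coverage of 98.8%, 97.2%, 97.1% and 99.9%. Coverage of the 7913-bp domain nearest to Scaf8 was 46.0%, 48.4%, 92.8% and 63.6%. Another near Scaf8, 3260 bp, had no base covered by all 4 replicates, the lowest of all domains, followed by the last of the Scaf8 domains with 5.67% and the domain near Hnf4g with 19.2%. Over the 10 distal tandem repeats the strongest summits lay a median of 2025 bp apart, against 88 bp in promoter domains and 164.5 bp past gene ends. Without the 13 tandem repeats there were 338 broad domains, 203 of them promoter.

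AP-1, the Jun and Fos factors that act in activated T cells, has the string TGANTCA. It lay within 100 bp of the strongest summit in 17.8%, 17.0%, 18.5% and 17.0% of 135 distal broad domains without tandem repeats, and in 35.9%, 36.0%, 35.8% and 35.8% of 53072 narrower distal regions. The window had the same length, 201 bp, in both. Per kind the share was 21.6% ± 1.31 (SD, n = 4) past gene ends, 20.2% ± 3.09 within genes, 17.0% ± 2.27 between genes and 11.2% ± 1.32 with a TSS off the middle, all below the narrower distal regions. Over whole distal domains the string occurred 0.362 times per kb, against 0.859 in narrower distal regions, and 0.313 times past gene ends, where its reversed form occurred 0.371 times. In promoter domains the share at the summit was 9.61% ± 1.82, against 9.57% ± 0.0937 in narrower promoter regions, a difference smaller than the spread between replicates.

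The RUNX string TGTGGTT lay at the summit in 8.89% ± 0.855 (SD, n = 4) of distal domains and 10.5% ± 0.0654 of narrower distal regions, and the KLF/SP string in 16.3% ± 0.605 and 3.21% ± 0.0319. The RUNX share was 12.1% ± 1.61 within genes, 13.6% ± 6.43 between genes, 7.89% in every replicate with a TSS off the middle and 5.11% ± 2.18 past gene ends. Between genes the replicates ran from 4.55% to 18.2% of 22 domains, on both sides of the narrower regions. With 22 to 44 domains per kind, each share rests on few matches and a split between kinds cannot be read from them. The KLF/SP share was 37.5% ± 3.31 in domains with a TSS off the middle, 15.9% ± 2.62 between genes, 8.06% ± 1.86 within genes and 3.98% ± 1.14 past gene ends. The KLF/SP string reads the same when reversed, so its reversed form gives no comparison. CTCF, the insulator factor, had a match at the summit in 2.22% of distal domains in every replicate, against 4.24% ± 0.0226. All of these lay past gene ends, where the share was 6.82% in every replicate, and it was 0 in the other 3 kinds. Anywhere in the domain, the string lay in 3 of the 44 domains past gene ends. The other kinds hold 38, 31 and 22 domains, so these shares rest on too few domains to set a kind apart from the narrower regions. The strongest summits of the 4 replicates lay within 100 bp of each other in 53.4% of promoter domains and 50.3% of distal domains, against 73.3% and 81.9% of narrower regions, so a summit marks the centre of a broad domain less firmly.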

How the data were processed

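ATAC-seq peak lists of 4 Th17 replicates were used, 1 list per replicate, on mm10. The authors' deposited lists are in narrowPeak format and were made from each library's alignments, per the file headers. Their peak names mention masking, deduplication and sorting. Names and settings of the aligner and peak caller were not given in the sources used here. The deposited signal value of each peak is not stated to be normalised between replicates and was used as a rank within a replicate or as deposited. The deposited −log10 p-value was not used, and the deposited −log10 q was used as a rank and a filter. The deposited display score was not used. The lists hold no counts, so precision is the spread between replicates.

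Peaks on chromosomes 1 to 19 and X were merged at an overlap of 1 bp in Python 3.11.15 with NumPy 2.4.6. TSSs of all transcripts, gene ends and exons came from GENCODE M21, and sequence from GRCm38.p6. A gene had a promoter domain when one of its TSSs lay within 1 kb of the midpoint, and a distal domain was assigned to the gene with the nearest TSS. The merging, coverage, motif and repeat steps were tested on simulated data. The members and gene lists were chosen with earlier results of these data known, and the kinds of distal domain and the families after seeing the domains. Named genes are those nearest to the 10 widest domains of each class, those just inside and outside the limit, listed genes with a domain, every Th17 gene, genes with most distal domains and domains with the lowest or highest share covered by all 4 replicates. Printed sequences are examples among those read from the widest domains with an exon-free window, near listed genes for domains within or between genes, and from the widest tandem repeat of each unit length and chromosome. Alternatives changed the width limit, the peaks used, the merging, the replicates, the promoter window and the TSSs.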

Additional observations from a re-analysis of the deposited data

Results flagged for a closer look

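Of 106 values tested for 1 replicate far from the other 3, 6 (5.66%) had one, where chance gives about 1 in 20. In replicate 3, 68.2% of domains past a gene end were a single peak, the highest value, beside 56.8%, 54.5% and 54.5% in replicates 1, 2 and 4. The AP-1 string lay at the summit in 6.90% of promoter domains in replicate 3, the lowest, beside 10.8%, 10.3% and 10.3%. The distal Apobec3 domain had a signal of 5.24 in replicate 4, the highest, beside 4.96, 4.94 and 4.98. The Nfatc1 promoter domain was covered to 100% in replicate 1, beside 94.1%, 94.2% and 94.9%, and had a signal of 5.35 in replicate 2, beside 5.08, 5.08 and 5.09. The Myb promoter domain was covered to 98.5% in replicate 2, beside 92.0%, 91.5% and 91.9%.

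Peaks of 3000 bp or more also lay outside the chromosomes used for the domains, on chromosome Y, the mitochondrial genome and unplaced sequence. There were 16, 17, 18 and 15 in replicates 1 to 4, of which 13, 12, 14 and 11 were on unplaced sequence. They were not merged or described further.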

How the results depend on the processing

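The number of broad domains followed the limits set. With a width limit of 2500 bp there were 1081 domains, 717 promoter (66.3%) and 364 distal, at 785 genes with a promoter domain, and 116 past a gene end. With 4000 bp there were 45, 21 promoter (46.7%) and 24 distal, at 21 genes, and 7 past a gene end. With the 50000 peaks of highest signal per replicate there were 179, 134 promoter (74.9%) and 45 distal, at 144 genes, and 3 past a gene end. Requiring 3000 bp covered by all 4 replicates left 128, 86 promoter (67.2%) and 42 distal, and requiring a peak of 3000 bp in each replicate left 107, 71 promoter (66.4%) and 36 distal. Peaks with a −log10 q of at least 10 gave 315 domains, 62.2% promoter. A promoter window of 500 bp gave 135 promoter domains (38.5%) at 140 genes, and 1 of 2 kb gave 70.4% promoter. Counting a TSS anywhere in the domain gave 69.8%, and using gene-model starts alone 132 promoter (37.6%) and 219 distal domains. A zone of 2 kb past gene ends held 26 domains. The zone widths and the removal of tandem repeats were chosen after seeing the data.

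Leaving out 1 replicate gave 303 to 326 domains, 178 to 193 promoter, 125 to 135 distal, 58.6% to 60.5% promoter, 190 to 206 genes and 35 to 40 domains past a gene end. These sets overlapped 86.3% to 92.9% of the reported domains. No paired analysis was possible because there is 1 group. Depth limits are unknown, since the lists hold no counts.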
